A study of Mus musculus with 11 samples.

Results

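PDGFRA-positive stroma and endothelium of the mouse small intestine were compared by bulk RNA sequencing of sorted cells, over 8 of the 11 samples of the series. The libraries were chosen by their labels alone, as 4 of PDGFRA-GFP cells and 4 of CD31-positive cells. The stromal side held 2 libraries of telocytes (GFP-high) and 2 of PDGFRAlo stromal cells (GFP-low), both from transgenic PDGFRAH2BEGFP mice, in which a nuclear green fluorescent protein reports the Pdgfra gene. The endothelial side held 2 libraries of CD31+LYVE1- cells and 2 of CD31+LYVE1+ cells, labelled endothelial and lymphatic endothelial, from C57BL/6 mice. All 4 populations came from intestine with the muscle stripped and the epithelium removed by EDTA, with no treatment or age given. Strain and sorting method followed the sides, so in the bulk libraries neither can be told apart from cell type. The labels do not say whether 2 libraries of a population came from different animals, so the p-values describe how these libraries vary and may hold technical spread alone.

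Beneath the intestinal epithelium, fibroblast-like stromal cells lay down collagen and other matrix and send growth factors to the epithelium and to vessels. Telocytes are the stromal cells that lie against the epithelium and express the receptor PDGFRA most strongly, and PDGFRAlo cells fill the lamina propria and submucosa. Endothelial cells line blood and lymphatic vessels and are held together by junction proteins such as VE-cadherin. They take up lipid, carry receptors for vascular growth factors and run a transcription programme led by ETS and SOX factors.

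Levels are counts per 1000000 (CPM) on library sizes scaled by edgeR's TMM method. A fold is the log2 difference between the mean of the 2 stromal populations and the mean of the 2 endothelial populations, positive where stroma was higher, with its standard error (SE). A gene was called when its adjusted p was under 0.05 (edgeR quasi-likelihood test, Benjamini-Hochberg over all genes tested), and "without overlap" when all 4 libraries of one side lay above all 4 of the other. Library totals ran from 8549348 to 55382442 counts, and 15429 to 17242 genes were detected. Jchain, an immunoglobulin chain gene of plasma cells, took 14.5% and 6.46% of the counts in the LYVE1 libraries.

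Among the genes behind the sort, Pdgfra separated the sides, whereas Pecam1 and Lyve1 overlapped between them. Cdh5 was not a sort marker and is given beside them. Pdgfra stood at 2401 and 2972 CPM in telocytes, 330 and 471 in PDGFRAlo cells, 1.89 and 30.2 in CD31 libraries, and 0.540 and 0.941 in LYVE1 libraries. It was higher in stroma without overlap (8.20 ± 0.89 SE, adjusted p = 7.25e-05, edgeR). Cdh5, the gene of VE-cadherin, stood at 1.28 and 0.787 CPM in telocytes, 42.4 and 11.1 in PDGFRAlo cells, 515 and 862 in CD31 libraries, and 65.1 and 52.1 in LYVE1 libraries. It was higher in endothelium without overlap (-5.26 ± 0.49 SE, adjusted p = 3.28e-05, edgeR), although the first PDGFRAlo library came close to the LYVE1 libraries. Pecam1, which encodes CD31, was also higher in endothelium (-3.46 ± 0.46 SE, adjusted p = 0.000224, edgeR), but the first PDGFRAlo library, at 299 CPM, lay above both LYVE1 libraries, at 123 and 198. Lyve1 reached 1919 and 3415 CPM in the LYVE1 libraries against 3.21 to 62.9 in the 6 others.

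Marker lists showed which other cells moved with the sides. Fewer cells of a type and less RNA per cell cannot be told apart in bulk samples. All 8 fibroblast markers were higher in stroma without overlap, with a summed level of 24570 to 85450 CPM against 125.3 to 339.7. All 8 pan-endothelial markers were higher in endothelium, 3 of them without overlap, because their summed level was 1139 and 390.1 CPM in the PDGFRAlo libraries and 1039 and 1717 in the LYVE1 libraries. In telocytes that sum was 28.51 and 16.23 CPM, and in CD31 libraries 5759 and 5886. All 8 telocyte markers were higher in stroma, 5 of them without overlap. Of 8 PDGFRAlo markers, 6 were higher in stroma, 2 of them without overlap. Cd81 was higher in endothelium and Pi16 was not called. PDGFRAlo markers summed to 142.1 and 151.8 CPM in telocytes, 16210 and 20910 in PDGFRAlo libraries and 1259 to 1671 in endothelium. Lymphatic markers summed to 3979 and 7593 CPM in LYVE1 libraries and 98.35 and 208 in CD31 libraries, and 5 were higher in endothelium, while Pdpn, a lymphatic marker that fibroblasts also express, was higher in stroma. Blood endothelial markers reached 2538 and 872.8 CPM in PDGFRAlo libraries against 2683 and 1971 in LYVE1 libraries. In an edgeR fit that took the 2 populations of a side as replicates, 3 of 8 pan-endothelial markers were called. Of 8 blood endothelial markers, 8 were called in the main fit and 4 in that fit.

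Leukocyte transcripts also went with the endothelial side. All 6 pan-leukocyte markers, all 10 macrophage or dendritic cell markers and all 7 MHC class II genes were called higher in endothelium. The macrophage or dendritic cell list summed to 14050 and 18150 CPM in LYVE1 libraries, 4203 and 3039 in CD31 libraries, 695.5 and 349.4 in PDGFRAlo libraries and 61.01 and 49.28 in telocytes. MHC class II summed to 43960 and 50470 CPM in LYVE1 libraries and 13830 and 12360 in CD31 libraries, against 105.8 to 2335 on the stromal side. None of the 10 macrophage or dendritic cell markers was at 0 in any library. CD31 is carried by many leukocytes as well as by endothelium, and LYVE1 by some macrophages. The part of leukocyte RNA in the endothelial side of the bulk contrast was not tested, and it is given below gene by gene where single cells bear on it.

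**Figure D1:**
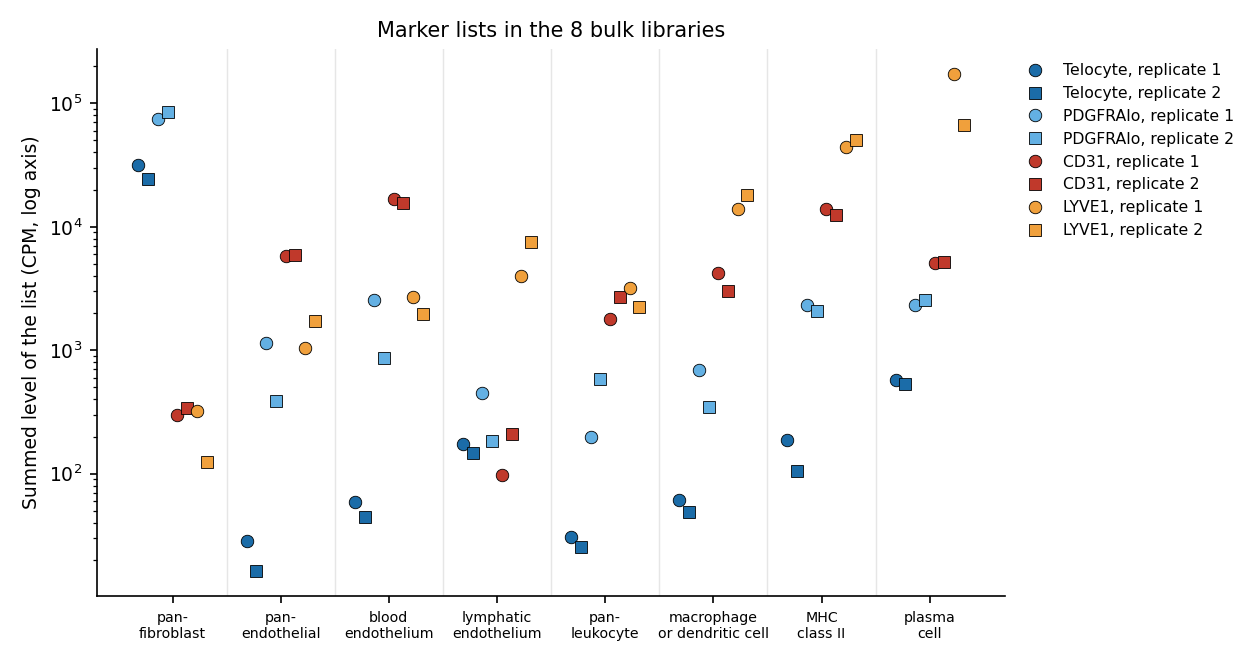
Summed level of 8 marker lists in each of the 8 bulk libraries (CPM, log axis). Each point is 1 library, coloured by population, with circles for replicate 1 and squares for replicate 2. Fibroblast markers divide the sides by a wide gap, while pan-endothelial and blood endothelial markers in the first PDGFRAlo library reach the levels of the LYVE1 libraries, and the macrophage, MHC class II and plasma cell lists peak in the LYVE1 libraries.

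Most of the transcriptome differed between the sides. Of 14893 genes tested, 4288 (28.8%) were higher in PDGFRA stroma and 4724 (31.7%) in endothelium, 60.5% in all. Called without overlap were 3002 (20.2%) and 2951 (19.8%), while 20.8% and 20.4% of all genes tested had sides that did not overlap, called or not. The sides made up the first principal component, with 59.9% of the variance, on which the 4 stromal libraries lay at 82.48 to 179.2 and the 4 endothelial libraries at -150.1 to -117.3. Ranks of gene levels correlated at 0.948 to 0.983 between the 2 libraries of a population, 0.827 to 0.88 between populations of a side and 0.601 to 0.724 across the sides (Spearman, across genes of shared libraries). On that component the PDGFRAlo libraries lay nearer to the endothelial libraries than the telocyte libraries did. A model that took the 2 populations of a side as replicates called 2958 and 3073 genes, and without the LYVE1 libraries the counts were 3544 and 4416.

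A second measurement came from droplet single-cell libraries of whole mesenchyme, in which both kinds of cell come from the same suspension. In each of those 2 libraries the UMI counts were summed over cells with a Pdgfra UMI and no Pecam1, Cdh5 or Ptprc UMI (934 and 860 cells), and over cells with both Pecam1 and Cdh5 UMIs and no Pdgfra or Ptprc UMI (185 and 200 cells). These sums are called the Pdgfra gate and the endothelial gate, and library was a block in the edgeR fit. Of 11973 genes tested there, 3125 (26.1%) were higher in the Pdgfra gate and 3061 (25.6%) in the endothelial gate. The 2 libraries shared 7 cell barcodes of 6226 and 6040 cells kept. They were much alike and leave 1 residual degree of freedom, so their p-values may reflect technical spread only, and their labels give no strain. Ptprc-positive cells, with a Ptprc UMI and no Pdgfra or Cdh5 UMI (3442 and 3420 cells), are given beside the gates as a description. Their CPM are shares of their own total, without TMM scaling.

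**Figure D2:**
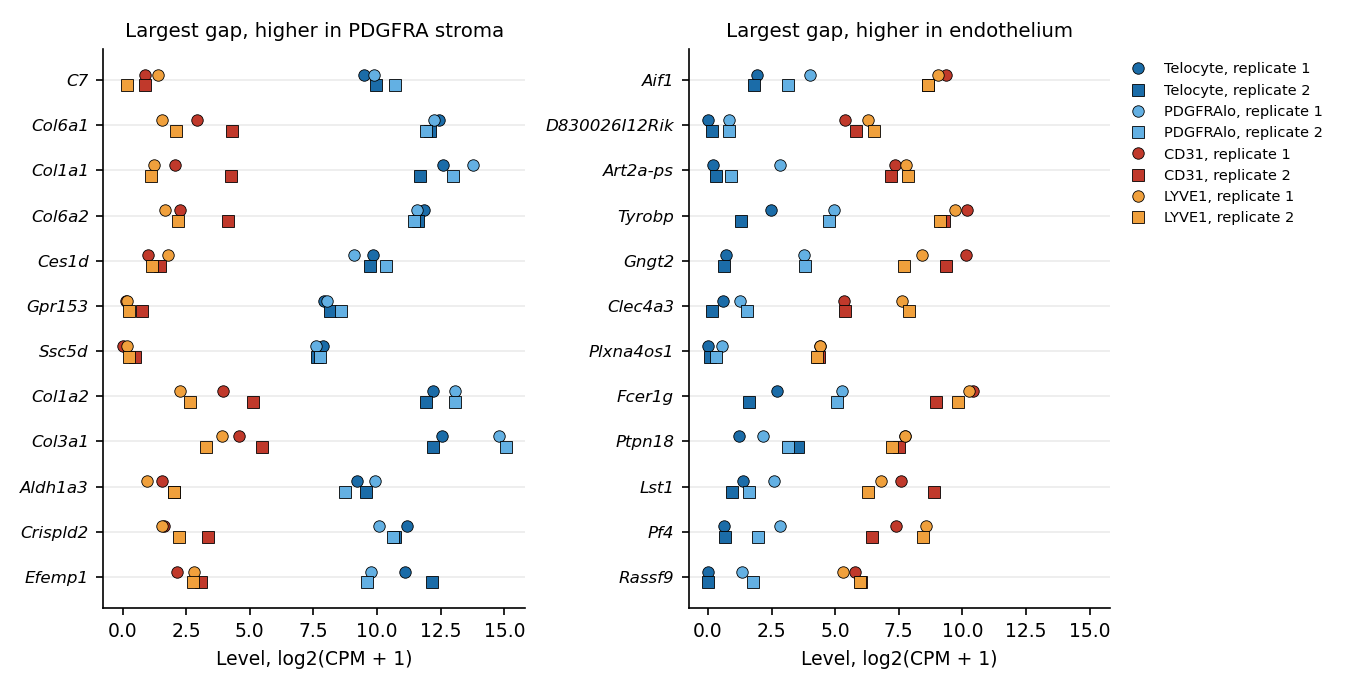
Level of the 12 genes per direction with the widest gap between the sides, in each of the 8 bulk libraries (horizontal axis, log2(CPM + 1), with 1 point per library, coloured by population). The 4 stromal points of every gene in the stromal group and the 4 endothelial points of every gene in the endothelial group lie apart from those of the other side.

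The 12 genes with the widest empty gap in favour of stroma were led by C7, a terminal complement component on chr15:4988762-5063740 (GRCm38, minus strand). It stood at 718 and 995 CPM in telocytes, 940 and 1666 in PDGFRAlo cells, 0.851 and 0.838 in CD31 libraries and 1.62 and 0.134 in LYVE1 libraries. The lowest stromal library was thus far above the highest endothelial one, and the fold was 10.37 ± 0.68 SE (adjusted p = 6.00e-06, edgeR). The next were the collagen genes Col6a1, Col1a1 and Col6a2. Ces1d, a carboxylesterase gene, followed at 552 to 1315 CPM in stroma and 0.993 to 2.43 in endothelium. Gpr153, an orphan receptor gene, ranged from 240 to 377 CPM in stroma and from 0.0946 to 0.712 in endothelium. The remaining 6 were Ssc5d, Col1a2, Col3a1, Aldh1a3, Crispld2 and Efemp1, with folds of 8.21 to 10.13. All 12 were also higher in the Pdgfra gate, by 5.15 to 7.13 on the log2 scale.

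The 12 genes with the widest gap in favour of endothelium included Aif1 and Tyrobp. These genes, known from macrophages and other myeloid cells, ranged from 397 to 662 and from 549 to 1174 CPM in endothelium, against 2.54 to 15.3 and 1.45 to 30.0 in stroma. In the endothelial gate Tyrobp stood at 1.78 and 3.26 CPM and in Ptprc-positive single cells at 327 and 337. Fcer1g, an immunoglobulin receptor subunit gene, showed the same order, at 10.7 and 10.6 CPM in the endothelial gate and 220 and 208 in Ptprc-positive cells. Clec4a3 and Pf4, a lectin and a platelet chemokine gene, were at 39.8 to 236 and 86.3 to 380 CPM in the endothelial libraries but at 1.78 CPM or less in the endothelial gate. Both were low in Ptprc-positive cells too, Clec4a3 at 1.60 and 1.10 CPM and Pf4 at 5.76 and 4.38. In the Pdgfra gate Clec4a3 was at 0 and Pf4 at 3.80 and 5.09 CPM, so the single cells do not place either gene. Art2a-ps, a pseudogene, had no value in the single-cell tables, and Lst1 stood at 6.23 and 5.71 CPM in the endothelial gate against 6.52 and 5.09 in the Pdgfra gate.

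Other genes of that group were also higher in the endothelial gate than in the Pdgfra gate. Rassf9 stood at 53.9 and 64.0 CPM in CD31 libraries and 38.5 and 61.7 in LYVE1 libraries, was at 0 in both telocyte libraries, and reached 1.52 and 2.45 in PDGFRAlo cells. In single cells it was 75.7 and 91.4 CPM in the endothelial gate and 0.272 and 0.450 in the Pdgfra gate (-7.75, adjusted p = 1.15e-11, edgeR). Gngt2, a G protein subunit gene, ranged from 207 to 1137 CPM in endothelium and 0.545 to 13.1 in stroma, and was 174 and 165 CPM in the endothelial gate, 75.8 and 82.3 in Ptprc-positive cells and 7.47 and 5.99 in the Pdgfra gate. D830026I12Rik, an unnamed transcript, was at 40.4 to 92.3 CPM in endothelium and at 0.793 or less in stroma, and was also higher in the endothelial gate. Ptpn18, a phosphatase gene, ranged from 151 to 215 CPM in endothelium and from 1.35 to 10.7 in stroma. In single cells it stood at 142 and 140 CPM in the endothelial gate, above the Pdgfra gate (-3.97) but below the 234 and 242 CPM of Ptprc-positive cells.

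Fibrillar collagens separated the sides. Of 9 fibrillar collagen genes tested, which form the tensile fibres of connective tissue, 8 were higher in stroma, each without overlap. Col3a1 stood at 6033 and 4689 CPM in telocytes and 28526 and 34101 in PDGFRAlo cells, against 8.61 to 43.6 in the 4 endothelial libraries. Col1a1 stood at 6245 and 3325 CPM in telocytes and 13837 and 8151 in PDGFRAlo cells, against 1.14 to 18.2 in endothelium. Col1a2 ranged from 3899 to 8590 CPM in stroma and from 3.78 to 34.1 in endothelium. Their folds were 9.39 ± 0.53, 10.96 ± 0.79 and 9.16 ± 0.50 (SE; adjusted p = 3.77e-06, 8.78e-06 and 3.26e-06, edgeR). The list's median log2 ratio of mean CPM was 7.43, against -0.10 over all genes tested. That ratio is given as each list's median because a fitted fold depends on the prior count where a population is at 0.

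Other collagens leaned the same way. Of 16 other collagens, 9 were higher in stroma, led by Col6a1, Col6a2 and Col6a3 of the beaded microfibril. Col6a1 stood at 5537 and 4282 CPM in telocytes, 4774 and 3840 in PDGFRAlo cells, 6.60 and 18.8 in CD31 libraries and 1.89 and 3.23 in LYVE1 libraries. Col6a2 ranged from 2826 to 3650 CPM in stroma and from 2.16 to 16.4 in endothelium. Col23a1, a transmembrane collagen gene, was not called (1.01 ± 0.49 SE), at 155, 359, 57.1 and 47.7 CPM in stroma, 4.75 and 24.2 in CD31 libraries and 157 and 304 in LYVE1 libraries. The populations of each side were thus unlike for Col23a1.

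Basement membrane genes leaned the same way with more overlap. Of 22 tested, 16 were higher in stroma and 1 in endothelium (median log2 ratio 1.65), and without the LYVE1 libraries 11 and 4. Lamb1, a laminin chain gene, stood at 2084 and 2779 CPM in telocytes and 1128 and 1124 in PDGFRAlo cells, against 245 and 244 in CD31 and 22.1 and 25.6 in LYVE1 libraries. Nid1, which links laminin to collagen IV, ranged from 844 to 1073 CPM in stroma and from 31.2 to 172 in endothelium (3.72 ± 0.28 SE). Lamc1 ranged from 604 to 962 CPM in stroma and from 26.2 to 87.6 in endothelium (4.07 ± 0.29 SE). In the gates 10 of 20 basement membrane genes were higher in Pdgfra cells and 5 in endothelial cells, a smaller lean to stroma in these counts.

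Proteoglycan, elastic fibre and protease genes were also mostly stromal. Of 12 small leucine-rich proteoglycan genes, 9 were higher in stroma. Dcn, the gene of the collagen-binding decorin, stood at 6234 and 4186 CPM in telocytes, 16868 and 25368 in PDGFRAlo cells, 205 and 167 in CD31 libraries and 252 and 90.9 in LYVE1 libraries (5.88 ± 0.50 SE). Lum and Ogn of the same family had folds of 6.96 and 7.03. Of 22 elastic fibre genes, 20 were higher in stroma, among them all 5 lysyl oxidases tested, which crosslink collagen and elastin. Efemp1, a fibulin gene, ranged from 773 to 4595 CPM in stroma and from 3.38 to 7.37 in endothelium. Ltbp1 and Ltbp4, which store latent TGF-beta in the matrix, had folds of 4.66 and 2.91.

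Matrix protease genes were mostly higher in stroma. Of 23 protease and inhibitor genes, 17 were higher in stroma and 4 in endothelium. Mmp2, a gelatinase gene, stood at 1775 and 1370 CPM in telocytes, 1586 and 1526 in PDGFRAlo cells, 12.2 and 13.2 in CD31 libraries and 11.3 and 26.8 in LYVE1 libraries (6.65 ± 0.40 SE, adjusted p = 4.41e-06, edgeR). Its 4 stromal values hardly differed. Mmp14, an activator of that gelatinase, and the inhibitor Timp2 had folds of 2.89 and 3.27. Mmp13, a collagenase gene, was higher in endothelium without overlap (-4.29 ± 0.63 SE), at 91.0 to 464 CPM, but stood at 0.890 and 0.816 CPM in the endothelial gate and 23.2 and 19.7 in Ptprc-positive cells. Timp3 was not called (-0.59 ± 0.32 SE), at 306 to 906 CPM in stroma and 610 to 1326 in endothelium, yet was higher in the endothelial gate (-2.97).

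Genes of the BMP ligand list, which control crypt and villus identity, were higher in stroma. All 10 tested, among them Bmp1, a protease that shares the name, were higher in stroma, 8 of them without overlap, as were 8 of 12 antagonists. Bmp4 stood at 1074 and 994 CPM in telocytes, 431 and 389 in PDGFRAlo cells, 20.5 and 29.6 in CD31 libraries and 4.46 and 3.09 in LYVE1 libraries (6.07 ± 0.31 SE, adjusted p = 2.94e-06, edgeR). Bmp5 ranged from 103 to 1827 CPM in stroma and from 0 to 3.48 in endothelium. Among antagonists, Nbl1 and Twsg1 ranged from 814 to 3396 and from 459 to 1643 CPM in stroma, against 23.6 to 87.6 and 22.8 to 87.6 in endothelium. Receptors were shared more evenly, with 4 of 8 higher in stroma and 1, Bmpr2, in endothelium (-0.67 ± 0.26 SE, adjusted p = 0.0486, edgeR).

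BMP target genes did not lean to stroma as the ligands did. Of 8 targets, 2 were higher in stroma and 1 in endothelium, beside 28.8% and 31.7% of all genes tested. With so few genes these counts say little about the targets. Their fitted median was 0.59 while their median log2 ratio was -0.10. Id3 stood at 662 and 1135 CPM in telocytes, 871 and 320 in PDGFRAlo cells, 1700 and 651 in CD31 libraries and 184 and 139 in LYVE1 libraries, and was not called (0.75 ± 0.43 SE). Id2 ranged from 63.7 to 305 CPM in stroma and from 168 to 303 in endothelium. The groups overlapped for both. In the gates 6 of 8 targets were higher in endothelial cells, beside 25.6% of all genes tested there. Without the LYVE1 libraries 21 of the 38 genes of the whole BMP list were higher in stroma and 7 in endothelium, against 24 and 3.

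Hedgehog receptor and Gli genes were mostly higher in stroma. In the intestine the epithelium secretes hedgehog ligands and mesenchymal cells receive them through PTCH1 and SMO. Of 10 receptor and transcription factor genes, 9 were higher in stroma, 7 of them without overlap, and Cdon, a co-receptor gene, was not called. All 9 tested in the gates were higher in the Pdgfra gate. Ptch1 stood at 200 and 156 CPM in telocytes, 119 and 112 in PDGFRAlo cells, 20.2 and 18.9 in CD31 libraries and 9.05 and 7.93 in LYVE1 libraries (3.48 ± 0.22 SE, adjusted p = 5.77e-06, edgeR). Smo ranged from 97.8 to 122 CPM in stroma and from 1.35 to 4.37 in endothelium. Boc, a co-receptor gene, ranged from 23.0 to 118 and from 1.49 to 11.9 CPM. The ligand Ihh was too low to test, at 0.126 to 0.416 CPM in all 8 libraries.

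Wnt and FGF genes also leaned to stroma. Of 33 Wnt pathway genes, 23 were higher in stroma and 5 in endothelium (Wnt2, Sfrp5, Fzd4, Fzd6 and Tspan12). Sfrp1, a secreted Wnt inhibitor gene, stood at 61.5 and 115 CPM in telocytes, 3338 and 4705 in PDGFRAlo cells, 12.6 in both CD31 libraries and 10.3 and 4.30 in LYVE1 libraries. Its lowest stromal values came from telocytes. Dkk3 ranged from 556 to 1067 CPM in stroma and from 2.62 to 5.61 in endothelium (7.62 ± 0.41 SE), and the receptor gene Fzd1 from 109 to 790 and from 1.22 to 5.40. Of 13 FGF genes, 8 were higher in stroma. The receptor genes Fgfr1 and Fgfr2 had folds of 3.46 and 7.25, and Fgf9 stood at 151 and 125 CPM in telocytes, 3.57 and 5.22 in PDGFRAlo cells and 0.135 to 1.95 in endothelium.

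Most vascular growth factor receptor genes were higher in endothelium. Of 8 VEGF and angiopoietin receptor genes, 7 were higher in endothelium, and all 8 in the endothelial gate, with a median of -9.08 there. Kdr, the main VEGF receptor gene, stood at 9.19 and 4.36 CPM in telocytes, 387 and 124 in PDGFRAlo cells, 986 and 1134 in CD31 libraries and 152 and 210 in LYVE1 libraries. The first PDGFRAlo library was above both LYVE1 libraries, so the sides overlapped (-3.40 ± 0.43 SE, adjusted p = 0.000179, edgeR). Flt4, the lymphatic VEGF receptor gene, was the 1 of the 8 without overlap, at 68.3 to 258 CPM against 0.363 to 58.2 (-4.19 ± 0.55 SE). In the Pdgfra gate Kdr was at 0.272 and 0 CPM, against 745 and 739 in the endothelial gate. When the populations of a side were taken as replicates, Kdr was no longer called (-2.24 ± 1.31 SE, adjusted p = 0.194), nor was Flt1 (adjusted p = 0.0831), Flt4 (adjusted p = 0.0891), Tek (adjusted p = 0.315) or Nrp1 (adjusted p = 0.456). All 7 receptor calls were lost in that edgeR fit, and of the 16 ligand and receptor genes 3 were higher in endothelium there at an unadjusted p under 0.05.

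Their ligands were mixed. Vegfa stood at 247 and 299 CPM in telocytes, 90.0 and 40.5 in PDGFRAlo cells and 6.52 to 23.2 in the 4 endothelial libraries (3.63 ± 0.35 SE, adjusted p = 3.71e-05, edgeR). In the gates Vegfa was 33.1 and 41.4 CPM in Pdgfra cells and 37.4 and 40.0 in endothelial cells (-0.05, adjusted p = 0.82), so the bulk difference had no counterpart there. Vegfd and Angpt4 were higher in stroma without overlap, with folds of 4.24 and 5.13. Vegfc was not called (0.04 ± 0.50 SE), since it was high in CD31 libraries, at 104 and 142 CPM, and low in LYVE1 libraries, at 7.97 and 3.16. Without the LYVE1 libraries its fold was -2.22. The co-receptor gene Nrp2 was not called either, at 96.5 to 158 CPM in stroma and 114 to 234 in endothelium.

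Most Notch genes were higher in the endothelial gate, and fewer were called in bulk. Notch signalling sets arterial fate and sprouting in vessels. Of 13 genes, 7 were higher in endothelium and 2 in stroma in bulk, and 11 were higher in the endothelial gate. Dll4, a ligand gene, stood at 4.35 and 8.29 CPM in telocytes, 108 and 19.5 in PDGFRAlo cells, 91.5 and 103 in CD31 libraries and 27.7 and 74.3 in LYVE1 libraries. Its highest value was thus in a PDGFRAlo library (-1.81 ± 0.53 SE). Notch1 ranged from 5.69 to 53.1 CPM in stroma and from 26.9 to 104 in endothelium (-1.73 ± 0.25 SE), and was not called when populations were taken as replicates (adjusted p = 0.186). All 7 endothelial calls of the list were lost in that edgeR fit, where 1 gene was higher in endothelium at an unadjusted p under 0.05. Hes1, a target gene, was not called, at 128 to 927 CPM in stroma and 329 to 4481 in endothelium. Notch2 was higher in stroma without overlap (1.69 ± 0.49 SE), at 13.8 to 65.8 CPM.

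Ephrin and axon guidance genes were divided. Of 19 ephrin and Eph genes, 8 were higher in stroma and 3 in endothelium, and without the LYVE1 libraries 5 and 5. Ephb3, a receptor gene, ranged from 73.1 to 120 CPM in stroma and from 0.0709 to 0.628 in endothelium (8.20 ± 0.61 SE). Efna1, a ligand gene, ranged from 183 to 543 CPM in endothelium and from 3.15 to 80.0 in stroma (-4.65 ± 0.48 SE). Of 31 guidance genes, 14 were higher in stroma and 8 in endothelium, beside 28.8% and 31.7% of all genes tested. Slit3 stood at 67.6 and 14.5 CPM in telocytes, 497 and 653 in PDGFRAlo cells, 13.8 and 11.2 in CD31 libraries and 1.76 and 1.68 in LYVE1 libraries. Sema7a was the 1 guidance gene higher in endothelium without overlap, at 11.1 to 51.8 CPM against 0.121 to 5.55.

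Ligands and receptors were then read as 34 pairs taken from general knowledge of vascular and stromal signalling. In 11 pairs the ligand was higher in stroma and the receptor in endothelium, and in 5 the reverse held. In 4 pairs both genes were higher in stroma and in 2 both in endothelium. In the other 12 at least 1 gene was not called or not tested. Over all genes tested, 28.8% were higher in stroma and 31.7% in endothelium. Among the 11 pairs, Vegfa, Angpt1, Ntn1 and Cmklr1 were not called in the gates. There Bmp4, Cxcl12, Slit3, Hgf and their receptors in these pairs kept their directions. With populations taken as replicates, Kdr, Flt1, Nrp1 and Tek were not called in bulk. Bmpr2 (adjusted p = 0.0486) and Met (adjusted p = 0.0468) were near the threshold (edgeR). The 5 pairs that ran from endothelium to stroma joined Pdgfa to Pdgfra, Pdgfb to Pdgfrb, Edn1 to Ednra and Ednrb, and Apln to Aplnr. A pair of transcripts says nothing of contact between cells or of protein.

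**Figure D3:**
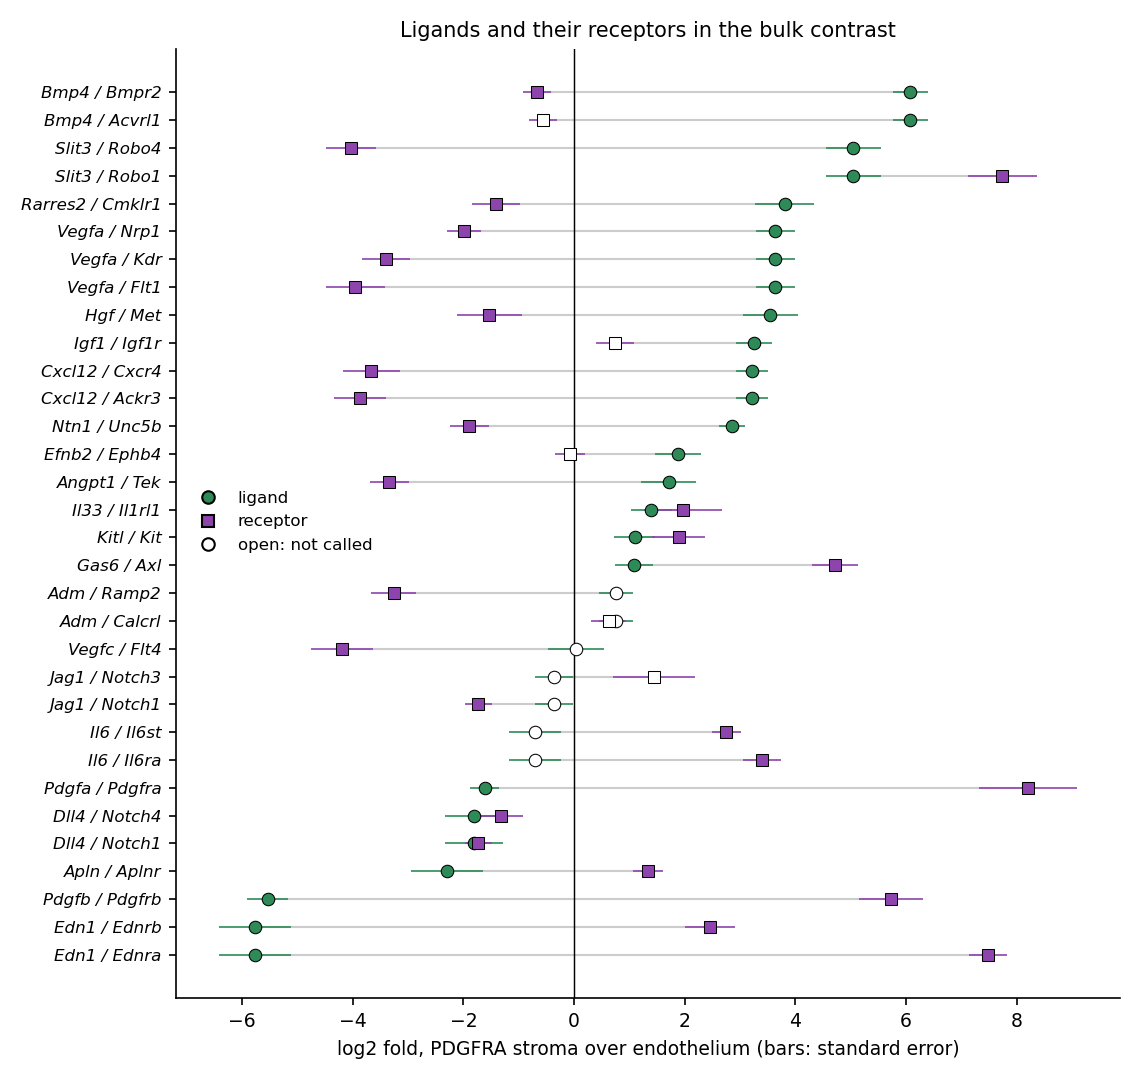
Log2 fold of the ligand (circle) and the receptor (square) of the 32 pairs in which both genes were tested, stroma over endothelium, with standard errors. Open symbols were not called. Pairs at the top have a stromal ligand, most with an endothelial receptor, and pairs at the bottom have an endothelial ligand, with a stromal receptor in 5 of 7.

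In the PDGF and endothelin pairs the ligand gene was higher in endothelium and the receptor gene in stroma. Pdgfb, a ligand gene of vessel walls, stood at 0.0713 and 0 CPM in telocytes, 4.10 and 4.67 in PDGFRAlo cells, 83.7 and 82.3 in CD31 libraries and 4.32 and 4.57 in LYVE1 libraries. The CD31 libraries stood apart, and the LYVE1 libraries overlapped with PDGFRAlo cells (-5.53 ± 0.37 SE). Pdgfrb, its receptor gene, stood at 435 and 416, 340 and 291, 14.1 and 56.0, and 2.43 and 0.538 CPM in the same order (5.73 ± 0.58 SE, without overlap). Edn1, the endothelin gene of endothelium, reached 211 and 534 CPM in CD31 libraries and 0.0713 to 20.3 in the 6 others. Ednra, the receptor gene, stood at 956 and 1267 CPM in telocytes, 56.2 and 55.5 in PDGFRAlo cells and 0.471 to 3.56 in endothelium (7.48 ± 0.34 SE, adjusted p = 2.76e-06, edgeR). The ligand difference of both pairs rested on CD31 libraries and the Ednra level chiefly on telocytes. With populations taken as replicates, Pdgfb (adjusted p = 0.0602) and Edn1 (adjusted p = 0.0612) were not called.

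Ligands of stroma with receptors in endothelium included a chemokine and several growth factors. Cxcl12, which attracts cells bearing CXCR4, stood at 2887 and 3624 CPM in telocytes, 1528 and 1663 in PDGFRAlo cells, 808 and 1008 in CD31 libraries and 68.6 and 63.5 in LYVE1 libraries (3.22 ± 0.29 SE). Cxcr4 ranged from 8.27 to 23.1 CPM in endothelium and from 0.0605 to 6.65 in stroma, and was 41.0 and 45.5 CPM in Ptprc-positive single cells against 7.12 and 6.53 in the endothelial gate. The scavenging receptor gene Ackr3 ranged from 247 to 472 CPM in endothelium and from 1.15 to 142 in stroma (-3.86 ± 0.47 SE). Hgf stood at 49.5 to 55.3 CPM in all 4 stromal libraries and 1.49 to 7.12 in endothelium (3.55 ± 0.49 SE), while its receptor gene Met overlapped, with 26.2 and 37.2 CPM in CD31 libraries and 0.945 and 1.68 in LYVE1 libraries. Robo4, a receptor of vessels, ranged from 58.5 to 328 CPM in endothelium and 0.787 to 84.0 in stroma, whereas Robo1 ranged from 13.7 to 32.7 CPM in stroma and from 0 to 0.377 in endothelium.

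Some pairs did not separate. Gas6 and its receptor gene Axl were both higher in stroma, but Gas6 overlapped, at 404 to 546 CPM in stroma and 136 to 408 in endothelium, while Axl did not, at 835 to 1087 and 18.8 to 80.8 (4.72 ± 0.41 SE). Kitl was called higher in stroma (1.09 ± 0.37 SE, adjusted p = 0.0277, edgeR), with 152, 214, 171 and 52.4 CPM there against 275 and 192 in CD31 libraries and 20.9 and 17.5 in LYVE1 libraries. That call rested on the LYVE1 libraries, and without them the fold was -0.72 (adjusted p = 0.218). Aplnr likewise moved from 1.33 to -0.94, having stood at 354 and 368 CPM in telocytes, 17.0 and 21.7 in PDGFRAlo cells, 133 and 185 in CD31 libraries and 9.18 and 4.77 in LYVE1 libraries. Efnb2 and Ephb4 showed no shared direction, since Ephb4 was not called (-0.07 ± 0.27 SE).

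Junction and adhesion genes of vessels were mostly higher in endothelium. Of 23 such genes, 15 were higher in endothelium and 2 in stroma, with a median log2 ratio of -2.70, and in the gates 19 of 21 were higher in endothelial cells. Emcn, which encodes a surface sialomucin of capillaries and veins, stood at 1.50 and 1.27 CPM in telocytes, 83.6 and 38.8 in PDGFRAlo cells, 1757 and 1012 in CD31 libraries and 614 and 654 in LYVE1 libraries (-6.67 ± 0.41 SE, adjusted p = 4.75e-06, edgeR). Ctla2a ranged from 88.1 to 1741 CPM in endothelium and from 0.424 to 43.5 in stroma. Cd34 was not called (0.05 ± 0.36 SE) and was highest in PDGFRAlo cells, at 1089 and 1660 CPM, against 27.1 and 11.1 in telocytes, 581 and 515 in CD31 libraries and 60.1 and 29.5 in LYVE1 libraries. Its fold was -1.77 without the LYVE1 libraries and -2.97 without the PDGFRAlo libraries. Among 13 mesenchymal or shared adhesion genes, 6 were higher in stroma, with Cdh11 at 148 to 226 CPM in stroma and 0.880 to 1.82 in endothelium (7.27 ± 0.30 SE). With populations taken as replicates, 9 of the 36 junction and adhesion genes together were higher in endothelium, against 17 in the main fit.

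Vascular transcription factors were mostly higher in endothelium. Of 26 on the list, 18 were higher in endothelium and 1 in stroma, and all 26 were higher in the endothelial gate. With populations taken as replicates 13 were higher in endothelium. Mef2c stood at 2.78 and 2.60 CPM in telocytes, 47.0 and 38.0 in PDGFRAlo cells, 398 and 767 in CD31 libraries and 296 and 319 in LYVE1 libraries (-5.31 ± 0.32 SE, adjusted p = 4.56e-06, edgeR). Lmo2 ranged from 188 to 394 CPM in endothelium and from 0.545 to 37.0 in stroma, and Elk3 from 173 to 441 and from 18.0 to 55.9. Mef2c was also present in Ptprc-positive single cells, at 159 and 155 CPM against 338 and 313 in the endothelial gate. The factor called in the other direction was Etv6, slightly higher in stroma, at 48.0 to 61.4 CPM against 25.2 to 42.2 without overlap (0.57 ± 0.21 SE, adjusted p = 0.0375, edgeR). Epas1, the hypoxia factor HIF-2alpha, was not called (0.20 ± 0.48 SE), with 881 and 1290 CPM in CD31 libraries and 31.9 and 11.6 in LYVE1 libraries, and its fold was -2.63 without the LYVE1 libraries. Ets1 was shared, at 161 to 238 CPM in stroma and 142 to 347 in endothelium.

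Of 29 stromal transcription factors tested, 19 were higher in stroma and 3 in endothelium (Meis2, Ebf1 and Gata6). With populations taken as replicates 12 were higher in stroma. Foxf1, a target of hedgehog signalling in gut mesenchyme, stood at 847 and 741 CPM in telocytes, 360 and 329 in PDGFRAlo cells, 66.1 and 96.6 in CD31 libraries and 5.94 and 6.39 in LYVE1 libraries (4.54 ± 0.28 SE). Tcf21, a fibroblast lineage factor, ranged from 239 to 515 CPM in stroma and averaged 6.96 ± 4.70 (SD, n = 4) in endothelium, without overlap (5.84 ± 0.41 SE). Tbx2 ranged from 71.9 to 378 and from 1.14 to 9.38 CPM. Foxf1 was higher in the Pdgfra gate as well, by 1.32 on the log2 scale, at 112 and 122 CPM.

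Hox genes record position along the body axis. Of 25 tested, 10 were higher in stroma and 7 in endothelium, beside 28.8% and 31.7% of all genes tested, and without the LYVE1 libraries 6 and 8 of 24. All 5 Hoxc genes tested (Hoxc4, Hoxc5, Hoxc6, Hoxc8 and Hoxc9) were higher in stroma without overlap. Hoxc4 stood at 37.1 and 32.6 CPM in telocytes, 19.1 and 21.3 in PDGFRAlo cells and 0.0946 to 0.419 in endothelium (6.96 ± 0.49 SE, adjusted p = 7.83e-06, edgeR). Hoxc8 ranged from 25.3 to 89.1 CPM in stroma and from 0 to 15.7 in endothelium, the highest endothelial value being the second CD31 library, and it was not called without the LYVE1 libraries (2.64, adjusted p = 0.0582). In the other direction, Hoxa7 stood at 15.2 and 16.8, 11.9 and 9.80, 140 and 110, and 48.1 and 49.6 CPM in the same order (-2.57 ± 0.21 SE, adjusted p = 1.82e-05, edgeR). Hoxb7 and Hoxd4 were also higher in endothelium without overlap, and Hoxa7 and Hoxb7 were higher in the endothelial gate (-1.87 and -2.02).

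**Figure D4:**
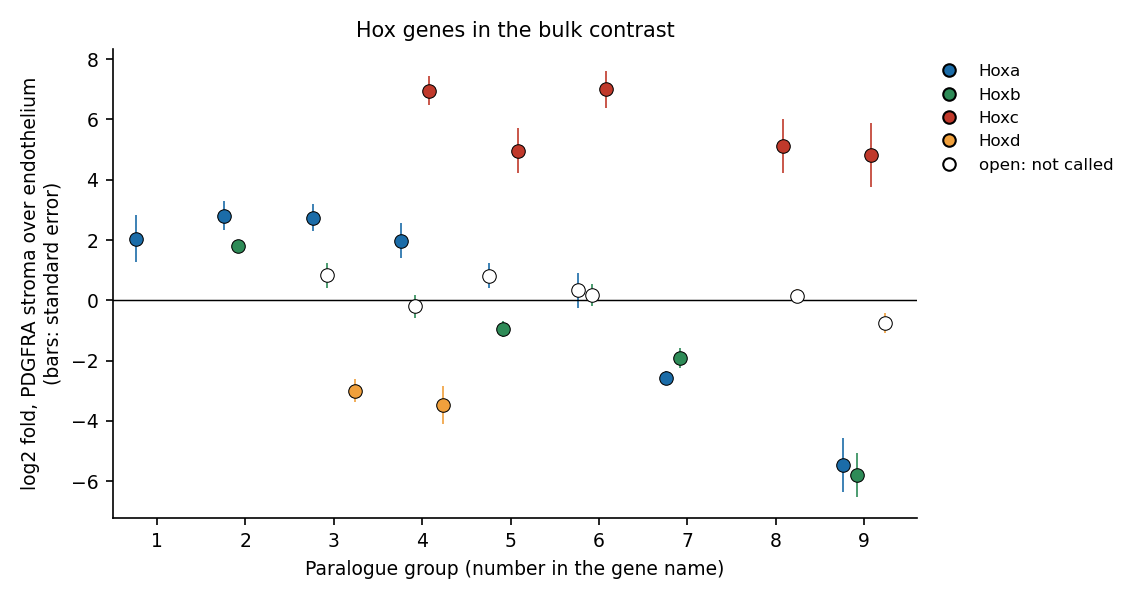
Log2 fold of the Hox genes tested, stroma over endothelium, by paralogue group and cluster, with standard errors. Hoxd10, at 0 in more than 1 population, is left out, and open circles were not called. The 5 Hoxc genes lie at 4.82 to 6.99, and Hoxa, Hoxb and Hoxd genes lie on both sides of 0.

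Chemokine counts differed between bulk and single cells. Of 20 chemokine genes, 5 were higher in stroma and 11 in endothelium in bulk, whereas in the gates 13 of 21 were higher in Pdgfra cells and 6 in endothelial cells. Ccl11, the eosinophil attractant, stood at 976 and 444 CPM in telocytes, 857 and 624 in PDGFRAlo cells, 33.5 and 28.2 in CD31 libraries and 16.7 and 7.40 in LYVE1 libraries, and was stromal in both measurements (5.24 in bulk and 4.38 in the gates). Cxcl2, a neutrophil attractant, stood at 8.20 and 11.7, 90.4 and 62.5, 719 and 749, and 1873 and 1961 CPM in the same order (-5.43 ± 0.32 SE). In single cells Cxcl2 was 18.7 and 11.4 CPM in the endothelial gate, 88.0 and 149 in the Pdgfra gate and 264 and 277 in Ptprc-positive cells. The macrophage or dendritic cell sum named above moved with it, and its part in the chemokine counts was not tested. Cxcl1 and Cxcl16 were not called, at 160 to 892 and 113 to 170 CPM in stroma and 140 to 586 and 80.2 to 351 in endothelium.

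In bulk most complement components were higher in stroma, and most of their regulators were not. Of 9 components tested, 7 were higher in stroma. Of 6 regulators, 1 was higher in stroma and 4 in endothelium, 1 of these 4 without overlap. In the gates all 8 components tested were higher in Pdgfra cells, while 3 of 6 regulators were higher there and 3 in endothelial cells. C3, the central component, averaged 23.2 CPM in telocytes (n = 2) and stood at 7088 and 9649 in PDGFRAlo cells and at 6.08 to 11.3 in endothelium, so its stromal level came almost wholly from PDGFRAlo libraries. C1s1, a protease of the classical pathway, was even across stroma, at 1194 to 1934 CPM, and stood at 9.28 to 20.1 in endothelium (6.81 ± 0.36 SE). Serping1, which inhibits it, ranged from 867 to 5252 CPM in stroma and from 98.4 to 557 in endothelium. Without the PDGFRAlo libraries 6 of 14 genes of the list were higher in stroma and 7 in endothelium, against 8 and 4 of 15.

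Retinoid genes split into synthesis and breakdown. Retinoic acid is made by aldehyde dehydrogenases and broken down by CYP26 enzymes. Aldh1a1 stood at 1669 and 1576 CPM in telocytes, 249 and 271 in PDGFRAlo cells, 1.58 and 3.31 in CD31 libraries and 5.13 and 2.76 in LYVE1 libraries (7.73 ± 0.42 SE, adjusted p = 3.21e-06, edgeR). Aldh1a3 ranged from 427 to 979 and from 0.945 to 3.09 CPM, and Rdh10, which supplies the substrate, from 97.4 to 935 and from 4.65 to 10.7. Cyp26b1 was the opposite, at 0.356 and 5.87 CPM in telocytes, 11.9 and 4.62 in PDGFRAlo cells, 311 and 273 in CD31 libraries and 56.2 and 49.6 in LYVE1 libraries (-4.61 ± 0.66 SE, adjusted p = 0.000358, edgeR). In single cells Cyp26b1 was 1151 and 1045 CPM in the endothelial gate against 3.39 and 3.90 in the Pdgfra gate. Of the 9 retinoid genes tested, 5 were higher in stroma and 3 in endothelium.

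Lipid handling genes were called in both directions, and most caveola genes were higher in endothelium. Fabp4, a fatty acid carrier of capillary endothelium, stood at 2.85 and 2.97 CPM in telocytes, 165 and 52.4 in PDGFRAlo cells, 20466 and 11008 in CD31 libraries and 812 and 314 in LYVE1 libraries (-7.38 ± 0.62 SE). Cd36 ranged from 219 to 1238 CPM in endothelium and from 2.07 to 116 in stroma. Gpihbp1, which anchors lipoprotein lipase on capillaries, stood at 466 and 94.3 CPM in CD31 libraries, 467 and 446 in LYVE1 libraries and 0.121 to 12.9 in stroma (-8.08 ± 0.71 SE). Lpl itself was higher in stroma, at 108 to 328 CPM against 5.70 to 82.4 (2.69 ± 0.42 SE). Of 14 lipid genes, 8 were higher in endothelium and 5 in stroma, and the list's fitted median (-1.93) and median log2 ratio (0.17) differed in sign. In the gates 5 of 13 lipid genes were higher in Pdgfra cells and 5 in endothelial cells. With populations taken as replicates 4 lipid genes and 2 caveola genes were higher in endothelium. Of 8 caveola genes, 5 were higher in endothelium, led by Cavin2 and Cav2 without overlap (-5.35 and -2.70), while Cavin1 was not called, at 186 to 314 CPM in stroma and 68.9 to 384 in endothelium.

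Receptors of vascular signalling molecules were found on both sides. Of 21 G protein-coupled receptor and modifier genes, 10 were higher in stroma and 7 in endothelium, beside 28.8% and 31.7% of all genes tested. S1pr1, the sphingosine phosphate receptor of vessels, ranged from 202 to 754 CPM in endothelium and from 1.03 to 94.5 in stroma (-5.40 ± 0.47 SE). Ramp2, which pairs with CALCRL as the adrenomedullin receptor, stood at 68.1 and 79.2 CPM in telocytes, 156 and 140 in PDGFRAlo cells, 3074 and 919 in CD31 libraries and 555 and 450 in LYVE1 libraries. Calcrl itself was not called, at 301 to 615 CPM in stroma and 96.7 to 459 in endothelium. The lysophosphatidic acid receptor genes Lpar1 and Lpar6 went opposite ways. Lpar1 ranged from 200 to 810 CPM in stroma and from 7.78 to 31.2 in endothelium, and Lpar6 from 18.0 to 33.6 and from 143 to 269.

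Genes of vascular tone and contraction were mostly higher in stroma, and clotting genes were called in both directions. Of 13 tone genes, 9 were higher in stroma and 3 in endothelium, and in the gates 8 were higher in Pdgfra cells and 4 in endothelial cells. Of 14 genes of coagulation and fibrinolysis, 6 were higher in stroma and 4 in endothelium, 1 and 2 of them without overlap. Over all genes tested the shares were 28.8% and 31.7%, and 20.2% and 19.8% without overlap. In the gates 5 of 13 were higher in Pdgfra cells and 7 in endothelial cells. F3, tissue factor, stood at 550 and 303 CPM in telocytes, 238 and 312 in PDGFRAlo cells, 4.28 and 13.2 in CD31 libraries and 18.8 and 17.3 in LYVE1 libraries (4.77 ± 0.43 SE, adjusted p = 2.55e-05, edgeR). F8, coagulation factor VIII, stood at 15.0 and 19.4 CPM in LYVE1 libraries, 1.21 and 1.30 in CD31 libraries and 0.356 to 0.878 in stroma, and was not called without the LYVE1 libraries (-1.02, adjusted p = 0.223). Gucy1a1, a nitric oxide receptor subunit gene, ranged from 281 to 428 CPM in stroma and from 33.3 to 108 in endothelium, but in the gates it was 159 and 172 CPM in Pdgfra cells against 154 and 165 in endothelial cells. Of 12 contractile genes, 9 were higher in stroma. Tagln stood at 571 and 503, 110 and 67.7, 51.0 and 61.0, and 36.5 and 19.0 CPM in the same order as above. Smooth muscle markers summed to 466.2 to 2242 CPM in stroma and 116 to 496.5 in endothelium, with 5 of 8 higher in stroma, and their part in the contractile group was not tested.

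TGF-beta and IGF genes completed the lists. Of 19 tested, 11 were higher in stroma and 1, Igf2, in endothelium. Tgfbr2, a receptor gene, was even across stroma, at 1007, 997, 976 and 1123 CPM, and stood at 450 and 562 in CD31 libraries and 155 and 326 in LYVE1 libraries (1.55 ± 0.30 SE, adjusted p = 0.00192, edgeR). Thbs2, a matricellular protein gene, ranged from 213 to 779 CPM in stroma and from 0.545 to 2.49 in endothelium. Igf1 ranged from 199 to 383 and from 23.4 to 44.1 CPM. Igfbp7 was not called (0.21 ± 0.42 SE), with 13123 and 5788 CPM in CD31 libraries, 818 and 276 in LYVE1 libraries and 1697 to 3861 in stroma, and its fold was -1.86 without the LYVE1 libraries.

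Bulk and single-cell contrasts were set side by side over 11537 genes tested in both. Of 2721 genes higher in stroma without overlap, 1352 (49.7%) were higher in the Pdgfra gate and 209 (7.68%) in the endothelial gate. Over all genes tested in both, these shares were 26.2% and 25.7%. Of 2275 genes higher in endothelium without overlap, 850 (37.4%) were higher in the endothelial gate and 305 (13.4%) in the Pdgfra gate. When Ptprc-positive cells were added as a further gate, after the bulk values were seen, 74.2% of 2938 stromal genes without overlap were highest in the Pdgfra gate, against 42.5% of all 14167 genes. Of 2805 endothelial genes without overlap, 38.9% were highest in the endothelial gate and 40.0% in Ptprc-positive cells, against 35.9% and 21.6% of all genes. Levels in Ptprc-positive cells were not TMM-scaled, unlike those of the other gates, so these shares compare unlike scales. Plasma cell markers alone summed to 278900 and 275100 CPM in Ptprc-positive cells.

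**Figure D5:**
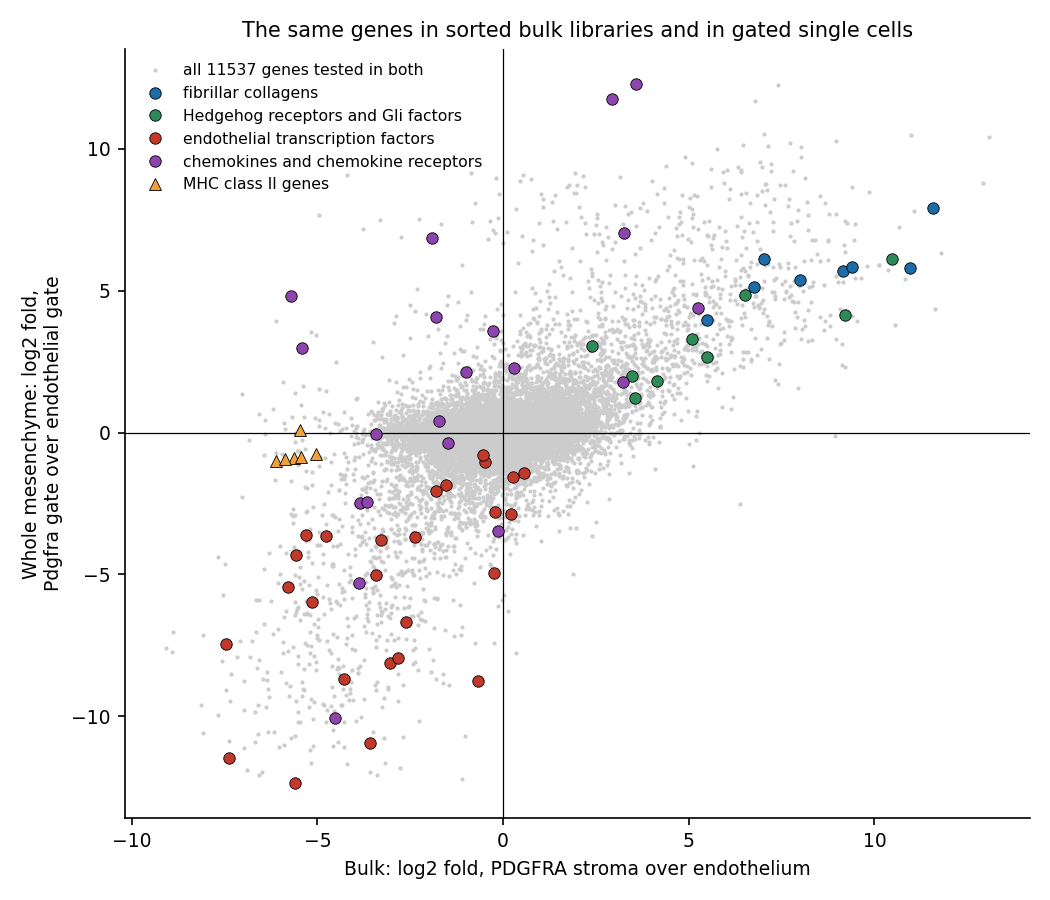
Log2 fold in bulk (horizontal, stroma over endothelium) and in single cells of whole mesenchyme (vertical, Pdgfra gate over endothelial gate) for the 11537 genes tested in both, each grey point 1 gene. Fibrillar collagens (blue) and hedgehog genes (green) lie at the upper right and most endothelial transcription factors (red) at the lower left, while chemokine genes (purple) are scattered and MHC class II genes (orange triangles) lie far to the left but near 0 on the vertical axis.

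Promoter sequences of 3 genes called in the bulk contrast are printed as examples, chosen after their values were seen. Each is the 250 bases before the RefSeq start on GRCm38.p6, written 5′ to 3′ in the direction of transcription, with the motif searched in capitals. Col1a2 (chr6:4505368-4505617, plus strand) holds a CCAAT box. Emcn (chr3:137340828-137341077, plus strand) and Tie1 (chr4:118489850-118490099, minus strand) hold AGGAAG or its reverse CTTCCT, a form of the site bound by many ETS factors. Other forms of that site were not searched and are not in capitals. Tie1, a receptor gene of endothelium, stood at 1.78 and 1.88 CPM in telocytes, 121 and 41.5 in PDGFRAlo cells, 194 and 290 in CD31 libraries and 59.7 and 158 in LYVE1 libraries, and the sides overlapped.
Col1a2: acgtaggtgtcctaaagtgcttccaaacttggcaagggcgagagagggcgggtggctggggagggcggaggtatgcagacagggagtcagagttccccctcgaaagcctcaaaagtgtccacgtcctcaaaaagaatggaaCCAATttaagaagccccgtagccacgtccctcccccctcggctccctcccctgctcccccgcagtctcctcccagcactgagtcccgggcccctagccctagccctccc
Emcn: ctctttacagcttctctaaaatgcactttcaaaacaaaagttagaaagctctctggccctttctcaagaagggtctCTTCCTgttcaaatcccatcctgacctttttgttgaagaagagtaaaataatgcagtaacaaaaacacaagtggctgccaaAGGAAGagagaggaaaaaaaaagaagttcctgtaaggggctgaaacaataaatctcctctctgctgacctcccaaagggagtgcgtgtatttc
Tie1: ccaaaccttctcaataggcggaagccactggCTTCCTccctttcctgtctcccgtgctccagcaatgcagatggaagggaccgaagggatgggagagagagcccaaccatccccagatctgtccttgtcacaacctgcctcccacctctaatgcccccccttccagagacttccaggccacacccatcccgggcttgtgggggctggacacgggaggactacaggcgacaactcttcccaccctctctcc

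These letters were common in promoters of both sides. On either strand of the 250 bases, AGGAAG occurred in 36.2% of 2348 endothelial genes without overlap that had a promoter in the table, 30.1% of 2334 stromal genes, 32.9% of 11635 genes tested and 32.3% of all 27025 promoters. CCAAT occurred in 38.8%, 38.3%, 39.7% and 37.5% in the same order. GGGCGG, the GC box, occurred in 54.2% of the endothelial and 65.9% of the stromal promoters, against 60.8% of genes tested and 35.4% of all. TATAAA, the TATA box, occurred in 8.99% and 6.73%, against 8.46% and 14.3%. A match is a description of the letters only.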

How the data were processed

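Sorted cells were sequenced with SMART-Seq v4 from 5 to 10 ng of RNA, per the labels' protocols. The authors deposited raw counts per gene for the bulk libraries and UMI counts per cell for the droplet libraries, per the labels and the values. STAR and Cell Ranger 2.1.1 (sorted cells) and 3.0.2 (whole mesenchyme) are named in the submitters' processing notes. For the bulk counting program, its annotation and its use of strand, nothing is given in the sources used here, so reads of overlapping, antisense or near-identical genes cannot be told apart.

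Of 24969 bulk rows, 26 whose symbol had become a date were left out. They held 0.131 to 0.523% of the counts. Bulk counts were fitted with edgeR 4.0.16 in R 4.3.3 (filterByExpr, TMM, 1 mean per population, quasi-likelihood test of the contrast between sides), with 4 residual degrees of freedom and a biological coefficient of variation of 0.381. On simulated counts the fit recovered 11 of 100 genes changed 2-fold and 82 of 100 changed 4-fold, with 3 false calls among 14573. In that simulation the populations of a side had equal means, all genes shared a common spread and few genes were changed. The data differ in each of these, so the rates may not hold for the real contrast. Single cells were kept from 500 detected genes upwards if mitochondrial UMIs made up less than 10%, and gate sums were fitted with library as a block. No doublet caller was run, and 39 cells per whole mesenchyme library with genes of both sides entered neither gate. The genes that define the gates are left out of gate results. DESeq2 1.42.0 was an alternative. Figures were drawn with matplotlib 3.10.9.

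Genes were named by rule: the 12 per direction with the largest gap, on the log2(CPM + 1) scale, between the lowest library of the higher side and the highest of the other; the sort genes; the members of the pairs; up to 3 called genes without overlap per list and direction with the highest mean; up to 2 genes per list not called with 100 CPM or more on both sides; and markers of a list described. The members and lists were chosen with earlier results of these data known. The Ptprc gate and the list counts under other settings were chosen after seeing the data.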

Additional observations from a re-analysis of the deposited data

Results flagged for a closer look

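Among the named genes whose sides did not overlap in bulk, 6 had called folds of opposite sign in bulk and in the single-cell gates. Another 4 named genes with such folds overlapped in bulk, namely Aplnr (1.33 in bulk, -1.78 in the gates), Efnb2 (1.88, -1.95), Kitl (1.09, -0.45) and Il33 (1.40, -0.34). Over the 11537 genes tested in both, 442 were higher in stroma and in the endothelial gate, and 442 in endothelium and the Pdgfra gate. The difference between the 2 measurements was not tested, since the assays differ. Kit, the stem cell factor receptor gene, had a fold of 1.90 in bulk (7.63, 31.6, 11.1 and 23.5 CPM in stroma, 3.29 to 7.21 in endothelium) and -2.44 in the gates, with 70.3 and 64.2 CPM in Ptprc-positive cells. Il6st, the shared receptor subunit of the interleukin-6 family, had 2.75 in bulk and -0.75 in the gates. Tgfbr2 had 1.55 and -0.79. Etv6 had 0.57 and -1.41. The chemokine genes went the other way, Cxcl2 with -5.43 in bulk and 2.99 in the gates, and Ccl8 with -5.72 and 4.82. Ccl8 stood at 467 and 525 CPM in LYVE1 libraries, 133 and 58.7 in CD31 libraries and 1.43 to 13.1 in stroma, and at 11.0 and 14.5 CPM in the Pdgfra gate, 0.890 and 0 in the endothelial gate and 1.54 and 1.69 in Ptprc-positive cells.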

How the results depend on the processing

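Counts of called genes kept within 1.5 times their value under TMM replaced by RLE or upper quartile scaling, no low-count filter and DESeq2 in bulk. A test against a fold of 2 (glmTreat) called 2401 genes in stroma and 2906 in endothelium. Taking the populations of a side as replicates called 3073 in endothelium. DESeq2 on the gates called 1400 and 1762 genes, against 3125 and 3061; the causes were not tested. Leaving out 1 bulk library gave 3672 to 4314 genes in stroma and 3768 to 4681 in endothelium, or 2872 to 3329 and 2681 to 3396 without overlap.

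Deviations of same-numbered libraries of different populations correlated at -0.103 to 0.195, the highest between CD31 and LYVE1 libraries. With 2 libraries per population this check cannot exclude that some were prepared as pairs. With the replicate block the counts were 4260 and 4603, and 2981 and 2920 without overlap. Without the block the gates gave 3324 and 3221.

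Of 186 named genes with a fit, 31 were no longer called with populations as replicates. Without the LYVE1 libraries the sign turned for Vegfc (-2.22), Kitl (-0.72), Aplnr (-0.94), Cd34 (-1.77), Epas1 (-2.63) and Igfbp7 (-1.86), and without the PDGFRAlo libraries for Cd34 (-2.97). Each side has 4 libraries of 2 populations, which limits the precision, and strain and sort cannot be told apart from side in bulk.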

Other observations

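Transcripts of epithelial and enteric cells were also uneven. All 6 Paneth cell genes, which encode antimicrobial peptides and other granule proteins of the crypt base, were higher in endothelium in the edgeR test, though the sides overlapped for each. Their sum was 1355 and 3367 CPM in CD31 libraries, 170.9 and 85.05 in LYVE1 libraries, 142.7 and 162.9 in PDGFRAlo libraries and 7.983 and 9.687 in telocytes. Epithelial markers summed to 146.7 to 277.3 CPM in endothelium and 4.904 to 122.5 in stroma. Markers of interstitial cells of Cajal, the gut pacemaker cells, were higher in stroma for all 4 tested, with a sum of 149.1 and 190.8 CPM in telocytes, 51.19 and 40.43 in PDGFRAlo libraries and 5.94 to 36.07 in endothelium. Without the LYVE1 libraries 1 of the 4 was called, and with populations taken as replicates 2. In the gates 1 of the 4 was higher in Pdgfra cells and 2 in endothelial cells. Genes induced by tissue dissociation summed to 10250 to 43040 CPM in stroma and 13970 to 19360 in endothelium. Of these 17 genes, 5 were higher in stroma and 2 in endothelium, beside 28.8% and 31.7% of all genes tested.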
